A study of Mus musculus with 3 samples.

Results

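Oxidative phosphorylation is carried out by 5 protein complexes of the mitochondrial inner membrane, and most of their subunits are encoded in the nucleus. The genes of these nuclear subunits, with the assembly factors that share their names, were taken from the expression table of splenic B cells by name alone. A gene was included when its symbol started with Nduf, Uqcr, Atp5 or Cox4 to Cox8, or was Sdha, Sdhb, Sdhc or Sdhd, and when the table listed a protein-coding transcript for it and its name did not mark it as a pseudogene. This gave 91 of the 27088 genes of the table. The names sorted them into 36 subunits of complex I, 8 assembly factors of complex I, 4 subunits of complex II, 8 of complex III, 16 of complex IV, counting Ndufa4, and 17 of the ATP synthase, while Cox7a2l and Ndufa4l2 belong to none of these groups. No expression value was used in the choice. The table's own annotation places 79 of the 91 genes in the mitochondrial inner membrane.

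Complexes I and II take electrons from NADH and succinate and pass them through ubiquinone to complex III, cytochrome c and complex IV, where oxygen is reduced. Complexes I, III and IV pump protons out of the matrix, and the ATP synthase uses their return to make ATP. B cells raise their respiration when they are activated. In many cell types, the transcription factors NRF1 and GABPA, an ETS family member, bind promoters of nuclear respiratory genes.

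The cells came from female BALB/c mice in a model of allergic rhinitis, and the series holds 3 samples. The PBS and SJMHE1 mice were sensitized 3 times, on days 0, 7 and 14, with 10 μg ovalbumin (OVA) and 2 mg aluminum hydroxide given into the peritoneum, then received 100 μg OVA into the nose in the period from day 21 to day 35. On days 0, 14 and 28 they were injected under the skin with PBS alone, or with 10 μg SJMHE1, a peptide of the parasitic worm Schistosoma japonicum, in incomplete Freund's adjuvant. The PBS mice got no Freund's adjuvant, so the peptide and the adjuvant cannot be told apart. Control mice were normal mice, all mice were killed on day 36, and the labels give an age of 13 weeks. B cells were sorted from the spleen, RNA of 3 mice was mixed for each group, and 1 library was made per group from total RNA depleted of ribosomal RNA. The Control library was not analysed here, because the remaining columns of values in the table carry a name that no sample's labels give.

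The sum of counts was 48267168 with PBS and 51280237 with SJMHE1. With 1 library per group, there is no replicate check and no test between the groups, and each difference describes a pair of libraries. In the text, a pair of values gives PBS first and SJMHE1 second. Expression is given as FPKM, the fragments counted for a gene, scaled by its length and by the size of the library, so that levels may be compared between genes. The difference is the log2 ratio of FPKM, SJMHE1 over PBS, in which 0 is equal and 1 is 2-fold higher in the SJMHE1 library. The interval after a ratio is a 95% Clopper-Pearson interval, exact for the counts and moved to the FPKM scale, and covers counting error only. Rescaling the FPKM to equal sums in both libraries would add 0.08 to every log2 ratio, so that each ratio or median between -0.08 and 0 changes its sign under that scaling. The sum of FPKM over all genes was 329617 and 311188, while that over protein-coding genes was 225749 and 228453, a log2 ratio of 0.02. The lower sum with SJMHE1 thus came from genes that are not protein-coding. Genes were compared where 1 library or both reached 1 FPKM and neither was at 0, which left 12433 genes of the table and 85 of the 91 respiratory genes. Of these, Atp5g1 and Cox6b2 reached 1 FPKM with PBS alone, and Ndufb2 was just inside the minimum at 1.52 and 1.60 FPKM. Of the 9 B cell markers, all were compared, with a median log2 ratio of 0.02, from -0.07 for Cd79b to 0.68 for Cr2. Cr2 was at 136 and 218 FPKM.

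Stretches of promoter from 9 of these genes are shown first, because the transcription factors above are known for the motifs that they hold. The promoter was the window from 250 bases before to 50 bases after the start of the gene in RefSeq (GRCm38.p6). Of the 91 genes, 75 were matched to 1 or more such windows. The motifs searched on both strands were GCATGCGC, the core of the NRF1 site, and CCGGAAG, an ETS site. Each line is read 5′ to 3′ on the strand of the gene, with the matched letters in capitals. In the first 4 genes the letters match the NRF1 core on both strands at once in an overlapping run, and Sdhb holds it on 1 strand. Only matches that lie wholly before the start are printed. Beyond these, the windows of Atp5k and Sdhb also held the ETS motif, that of Uqcr11 the NRF1 core, and that of Ndufaf4 a further match of the NRF1 core. The stretches of Atp5g2 and Atp5j are from windows whose start lies well inside the gene by the deposited gene coordinates. Atp5g2 had no other window, and the other window of Atp5j, at the deposited start of the gene, held neither motif. By the same coordinates, the matches printed for Atp5k and Sdhb lie at or after the start of the gene.
Atp5g2, chr15:102671065-102671104, minus strand: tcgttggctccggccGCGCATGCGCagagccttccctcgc
Atp5k, chr5:108434425-108434464, minus strand: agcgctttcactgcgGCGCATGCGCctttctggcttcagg
Ndufa11, chr17:56717687-56717726, plus strand: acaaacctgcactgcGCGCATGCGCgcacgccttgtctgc
Ndufaf4, chr4:24897955-24897994, plus strand: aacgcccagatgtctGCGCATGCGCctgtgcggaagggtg
Sdhb, chr4:140961202-140961239, plus strand: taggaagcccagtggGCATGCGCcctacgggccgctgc
Sdhd, chr9:50603874-50603910, minus strand: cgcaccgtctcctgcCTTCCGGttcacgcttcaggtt
Atp5j, chr16:84835016-84835052, minus strand: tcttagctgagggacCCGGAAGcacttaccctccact
Uqcr11, chr10:80406866-80406902, minus strand: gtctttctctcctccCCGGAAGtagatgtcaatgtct
Ndufaf1, chr2:119662835-119662867, minus strand: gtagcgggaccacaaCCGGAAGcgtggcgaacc

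The NRF1 core was present in a window of 12 of the 75 genes, a share of 16.0%. By comparison, it was found in 3.05% of the 27025 genes of the promoter table and in 6.73% of the 7925 protein-coding genes that were compared and had a window. The ETS motif was present in a window of 19 of the 75 genes (25.3%), against 9.93% of the promoter table and 23.2% of the protein-coding genes compared. Its share thus lay close to that of other genes expressed in these cells. Both motifs were present in the same window for 5 of the 75 genes (6.67%), against 1.64% of the protein-coding genes compared. A match of letters is not evidence that a factor was bound in these cells.

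The respiratory genes were expressed well above the middle of the table. The 85 genes compared had a median of 15.3 FPKM with PBS and 14.4 FPKM with SJMHE1, against 7.21 and 7.26 FPKM over the 9900 protein-coding genes compared. At least 10 FPKM was reached by 56 of the 91 genes with PBS and by 54 with SJMHE1. The highest levels were those of Atp5a1 and Atp5b, the α and β subunits that form the head of the ATP synthase, followed by Cox7a2l, a factor that joins complexes III and IV into supercomplexes. The 10 highest genes were the same 10 in both libraries. The highest gene stood 105-fold above the lowest of the genes compared with PBS and 149-fold above it with SJMHE1.

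**Figure D1:**
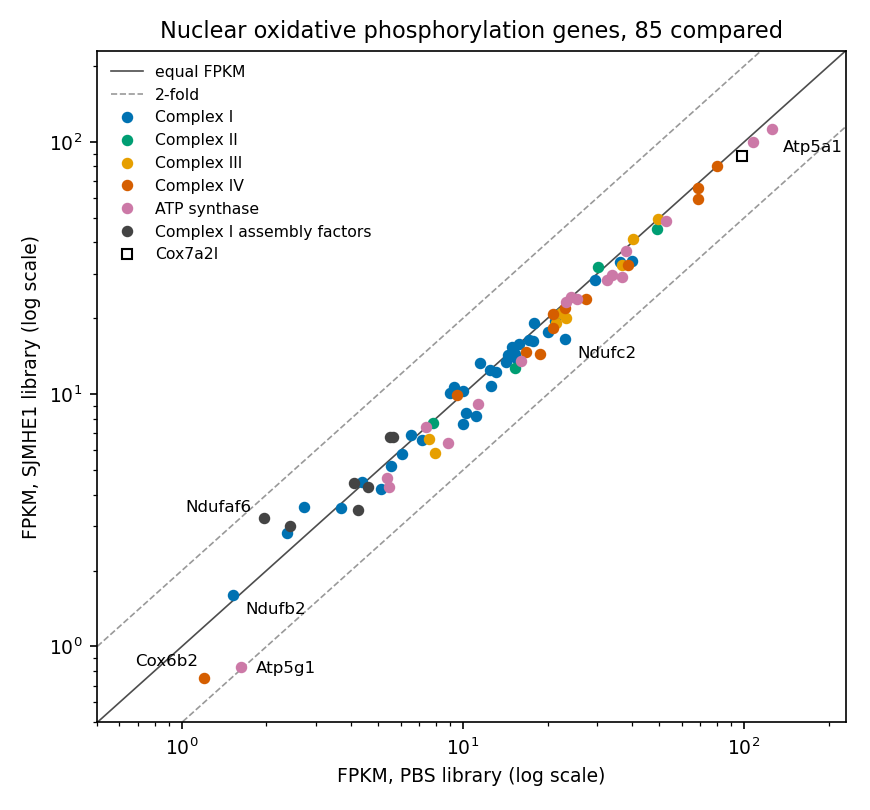
FPKM of each of the 85 respiratory genes compared, in the PBS library (x axis) and the SJMHE1 library (y axis), both on log scales; each point is 1 gene, coloured by complex, the solid line marks equal FPKM and the dashed lines a 2-fold difference. All 85 points lie between the dashed lines, with Atp5g1 next to the lower one, and more points lie below the solid line (62) than above it (23).

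None of the 85 respiratory genes compared differed 2-fold between the libraries, and most lay slightly lower in the SJMHE1 library. Of the 6 that were not compared, Cox6a2 and Cox4i2 had larger differences on few counts, which are given with the isoforms. The median log2 ratio was -0.10 over the 85 genes, with 62 genes below 0 and 23 above, against a median of -0.01 over all 12433 genes compared. With FPKM rescaled to equal sums, 47 of the 85 genes lay below 0 and 38 above. None of the 85 had a ratio above 1, a value passed by 2.43% of all genes compared, and none had a ratio below -1, which 3.57% of all genes compared had. At the lower threshold of 0.5, 1 gene (Ndufaf6) was higher, where 7.28% of all genes compared were, and 2 genes (Atp5g1 and Cox6b2) were lower, where 9.82% of all genes compared were. In these bulk samples, fewer cells of a type that expresses a gene and less RNA of that gene per cell cannot be told apart.

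The ratios were narrowly spread around a value below 0. Between the 5th and the 95th percentile they ran from -0.45 to 0.26, while those of the 9900 protein-coding genes compared ran from -0.58 to 0.46. A ratio below 0 was found for 72.9% of the respiratory genes and for 51.1% of the protein-coding genes. The counting interval lay wholly below 0 for 43 of the 85 genes (50.6%), against 35.4% of the protein-coding genes, and wholly above 0 for 8 (9.41%), against 32.9%. These counts depend on the scale, and with FPKM rescaled to equal sums 26 intervals (30.6%) lay below 0, against 23.8% of the protein-coding genes, and 20 (23.5%) above 0, against 47.1%. These shares describe the libraries, since the genes are not replicates and the spread between mice is not known. Summed over the 91 genes, the FPKM was 1883 with PBS and 1739 with SJMHE1, and their share of all counts was 0.419% and 0.387%.

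**Figure D2:**
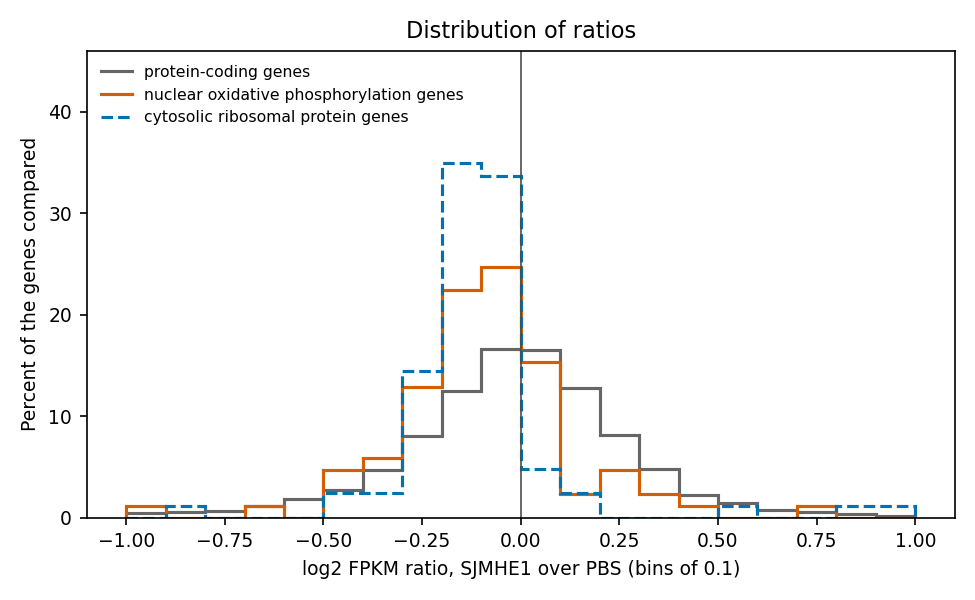
Percent of genes (y axis) in each bin of 0.1 of the log2 FPKM ratio, SJMHE1 over PBS (x axis), for the 9900 protein-coding genes compared, the 85 respiratory genes and the 83 cytosolic ribosomal protein genes. Ratios beyond 1 in either direction, which 2.63% of the protein-coding genes have and neither of the other groups has, are not drawn. The curve of the respiratory genes peaks just below 0 and thins out above 0.1.

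Complex I, which oxidizes NADH, had a median log2 ratio of -0.07 over its 36 genes, or 0.01 when FPKM was rescaled to equal sums, with 23 genes below 0 and 13 above in the deposited FPKM. Its 7 core subunits, which carry the cofactors and the ubiquinone site, had a median of -0.06 and stayed within 0.21 of 0. Ndufv1, which binds NADH and flavin, was at 15.8 FPKM in both libraries. Ndufs1, an iron-sulfur subunit, was at 10.0 FPKM with PBS and 10.3 with SJMHE1, with a log2 ratio of 0.04 (-0.02 to 0.10). Ndufv2, another iron-sulfur subunit of the NADH-oxidizing arm, was at 15.3 and 14.4 FPKM, with a ratio of -0.09. The intervals of these subunits reached 0, although with FPKM rescaled to equal sums that of Ndufs1 was 0.06 to 0.18.

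The core subunits near the ubiquinone site were less even. Ndufs7 stood at 11.5 FPKM with PBS and 13.3 with SJMHE1, a log2 ratio of 0.21 (0.09 to 0.32). Its iron-sulfur partner Ndufs8 went the other way, from 20.1 to 17.7 FPKM, a ratio of -0.18 (-0.29 to -0.07). Ndufs3 was at 17.1 and 16.5 FPKM with a ratio of -0.06. The intervals of Ndufs7 and Ndufs8 lay on opposite sides of 0, while with FPKM rescaled to equal sums that of Ndufs8 was -0.20 to 0.01.

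The 29 accessory subunits of complex I, which surround the core and stabilize it, had a median log2 ratio of -0.07 with 19 below 0 and 10 above. The lowest was Ndufc2, a subunit of the membrane arm (chr7:97400003-97407802, plus strand, mm10), at 23.1 FPKM (956 counts) with PBS and 16.5 FPKM (725 counts) with SJMHE1, a log2 ratio of -0.48 (-0.62 to -0.34). Ndufa13, which is also needed for assembly, was next with 11.2 and 8.17 FPKM and a ratio of -0.45 (-0.61 to -0.29). Tssk6, on the opposite strand at 0.83 and 0.66 FPKM, overlaps 30.0% of the exon bases of Ndufa13. At the other end stood Ndufc1, which neighbours Ndufc2 in the complex, with 2.71 FPKM (224 counts) and 3.58 FPKM (314 counts), a ratio of 0.40 (0.15 to 0.66). Ndufab1, the mitochondrial acyl carrier protein, had 2.36 and 2.81 FPKM and a ratio of 0.25 (0.12 to 0.38). The most expressed accessory gene, Ndufb11, had 40.0 and 33.7 FPKM, a ratio of -0.24 (-0.34 to -0.15). Of its exon bases, 12.9% are overlapped by Rbm10, a gene on the opposite strand that was at 21.7 and 28.2 FPKM. The subunits Ndufc1 and Ndufc2 thus had ratios of opposite sign.

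The assembly factors of complex I, which build the complex and are not part of the finished enzyme, were the group with the highest median. Of 8 factors, 7 were compared, with a median log2 ratio of 0.26, 5 above 0 and 2 below, and 4 intervals wholly above 0. Ndufaf6 (chr4:11051045-11076205, minus strand, mm10) had the highest ratio of all 85 genes, at 1.96 FPKM (134 counts) with PBS and 3.23 FPKM (235 counts) with SJMHE1, a log2 ratio of 0.72 (0.42 to 1.05). Ndufaf7, a methyltransferase, had 2.42 and 3.01 FPKM and a ratio of 0.31 (0.14 to 0.49). Ndufaf1, a member of the complex that assembles the membrane arm, had 5.48 and 6.79 FPKM and a ratio of 0.31 (0.13 to 0.49).

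Not all factors had a higher value in the SJMHE1 library. Ndufaf8 had 5.64 and 6.74 FPKM and a log2 ratio of 0.26 (0.02 to 0.50), and Ndufaf4, whose promoter stretch is shown above, had 4.11 and 4.46 FPKM and a ratio of 0.12 (-0.02 to 0.25). Ndufaf3, the partner of Ndufaf4 in assembly, had 4.24 and 3.47 FPKM and a ratio of -0.29 (-0.49 to -0.08). Ndufaf5, which hydroxylates Ndufs7, had 4.59 and 4.30 FPKM and a ratio of -0.09 (-0.28 to 0.10). Ndufaf2 was below 1 FPKM in both libraries, at 0.98 and 0.90. The factors were low in both libraries, and their intervals were wide, with a median half-width of 0.19 against 0.11 for all respiratory genes. The 36 compared assembly factors of the respiratory chain outside the name rule had a median log2 ratio of 0.03, from -0.51 for Bcs1l, which inserts the Rieske protein into complex III, to 0.56 for Uqcc2, a factor for cytochrome b.

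**Figure D3:**
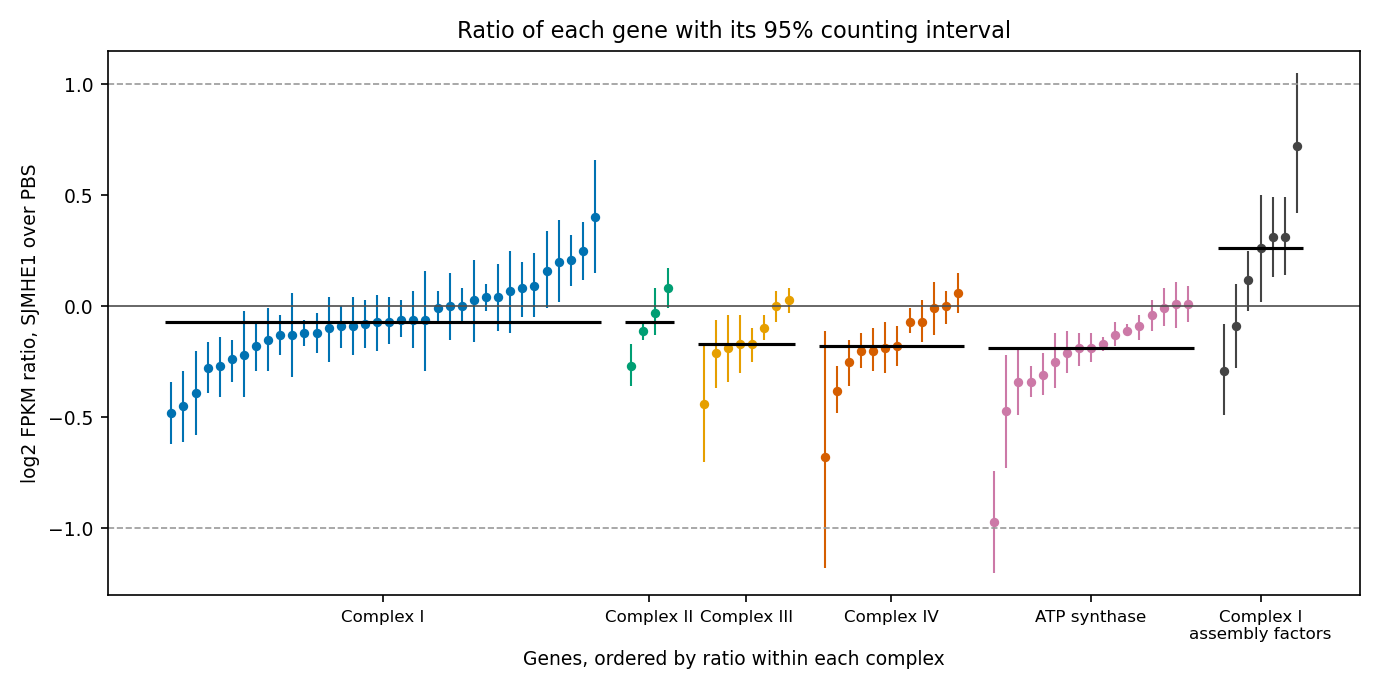
Log2 FPKM ratio, SJMHE1 over PBS (y axis), of 84 respiratory genes ordered by ratio within each complex (x axis); points are genes, vertical lines 95% counting intervals, black bars group medians and dashed lines 2-fold differences, and Cox7a2l is not drawn. The medians are -0.07 for complexes I and II, which change sign when FPKM is rescaled to equal sums, -0.17 for complex III, -0.18 for complex IV, -0.19 for the ATP synthase and 0.26 for the assembly factors.

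Complex II, succinate dehydrogenase, is the one complex whose subunits are all nuclear. Its median log2 ratio was -0.07, or 0.02 when FPKM was rescaled to equal sums. Sdhb, the iron-sulfur subunit, had 15.3 FPKM with PBS and 12.7 with SJMHE1, a log2 ratio of -0.27 (-0.36 to -0.17). Sdha, the flavoprotein that oxidizes succinate, was the most expressed, at 48.9 and 45.3 FPKM with a ratio of -0.11 (-0.15 to -0.07). The membrane anchors had intervals that reached 0: Sdhc was at 7.82 and 7.68 FPKM with a ratio of -0.03, and Sdhd was at 30.4 and 32.1 FPKM with a ratio of 0.08. With FPKM rescaled to equal sums, Sdhb remained below 0 (-0.28 to -0.09), the interval of Sdha reached 0 (-0.07 to 0.01) and that of Sdhd lay above 0 (0.08 to 0.25).

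In complex III, which passes electrons from ubiquinol to cytochrome c, 7 of 8 genes had a ratio below 0 and 6 had an interval wholly below 0 (2 with FPKM rescaled to equal sums), with a median log2 ratio of -0.17. The lowest were the small subunits Uqcr11, at 7.96 FPKM (281 counts) and 5.87 FPKM (219 counts) with a ratio of -0.44 (-0.70 to -0.18), and Uqcr10, at 23.3 and 20.1 FPKM with a ratio of -0.21. Uqcrfs1, the Rieske iron-sulfur protein, had 36.8 and 32.6 FPKM and a ratio of -0.17 (-0.25 to -0.10). The most expressed genes did not share this: Uqcrh, the hinge protein, was at 49.6 FPKM in both libraries, and Uqcrc2, a core protein, was at 40.4 and 41.2 FPKM with a ratio of 0.03 (-0.03 to 0.08). Pdzd9, on the opposite strand at 0.07 and 0.13 FPKM, overlaps 19.7% of the exon bases of Uqcrc2. Cyc1, the cytochrome c1 of this complex, is not covered by the name rule, and had 25.2 and 27.3 FPKM with a ratio of 0.11 (0.04 to 0.18).

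Complex IV, cytochrome c oxidase, had a median log2 ratio of -0.18 over the 12 genes compared, with 11 below 0 and 8 intervals wholly below 0 (6 with FPKM rescaled to equal sums). Cox5b, a zinc-binding subunit on the matrix side, had 18.8 FPKM (1635 counts) with PBS and 14.5 FPKM (1335 counts) with SJMHE1, a ratio of -0.38 (-0.48 to -0.27). Cox6b1, which helps to join the dimer, had 38.8 and 32.5 FPKM and a ratio of -0.25 (-0.36 to -0.15). The 3 most expressed subunits differed in their ratios. Cox8a was at 80.4 and 80.2 FPKM with a ratio of 0.00, Cox4i1, a regulatory subunit that binds ATP, was at 68.7 and 65.6 FPKM with a ratio of -0.07 (-0.12 to -0.01), and Cox6a1 was at 68.5 and 59.5 FPKM with a ratio of -0.20 (-0.28 to -0.12). Cox6c was the only gene of the complex above 0, at 9.56 and 9.94 FPKM with a ratio of 0.06 (-0.03 to 0.15).

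Isoforms known from heart and muscle, testis or hypoxic cells were near the floor of the measurement. Cox6b2, the testis form of Cox6b1, was the only 1 of 6 that could be compared, at 1.20 FPKM (75 counts) with PBS and 0.75 FPKM (51 counts) with SJMHE1, a log2 ratio of -0.68 with a wide interval of -1.18 to -0.11. The muscle forms Cox6a2, Cox7a1 and Cox8b had 36, 15 and 3 counts with PBS and 14, 29 and 3 with SJMHE1. The ratio of Cox6a2, which lay below the FPKM minimum, was -1.53 (-2.45 to -0.52), and 10.3% of its exon bases are overlapped by Itgad, a gene on the opposite strand that was at 0.66 and 0.91 FPKM. Cox4i2, the lung form of Cox4i1, had 10 counts and 0, and Ndufa4l2, a gene known from hypoxia, had 0 counts and 1. At a count of 0, up to 3 counts remain possible, which is below the 10 counts of Cox4i2 with PBS and above the 1 count of Ndufa4l2 with SJMHE1.

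The ATP synthase had a median log2 ratio of -0.19 over 17 genes, close to that of complex IV, with 15 genes below 0 and 13 intervals wholly below 0 (10 with FPKM rescaled to equal sums). All 5 genes of the catalytic F1 part had ratios below 0, with a median of -0.13. Atp5a1 was at 126 FPKM with PBS and 112 with SJMHE1, a ratio of -0.17 (-0.20 to -0.14). Atp5b was at 108 and 100 FPKM with a ratio of -0.11 (-0.13 to -0.08), and Atp5c1, the rotating γ shaft, was at 52.9 and 48.5 FPKM with a ratio of -0.13. The central stalk genes Atp5d and Atp5e, which encode neighbouring subunits, were unequal. Atp5d had 37.0 FPKM (3912 counts) and 29.2 FPKM (3267 counts) with a ratio of -0.34 (-0.41 to -0.27), while Atp5e was at 23.3 and 23.2 FPKM with a ratio of -0.01 (-0.09 to 0.08). With FPKM rescaled to equal sums, the intervals of Atp5a1 (-0.12 to -0.06) and Atp5d (-0.33 to -0.19) remained below 0. Under that scaling those of Atp5b (-0.05 to 0.00) and Atp5c1 (-0.10 to 0.01) reached 0, and the ratio of Atp5e was 0.07.

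The c ring, the rotor in the membrane, is encoded by Atp5g1, Atp5g2 and Atp5g3, which yield the same mature protein. Atp5g1 (chr11:96068852-96075670, minus strand, mm10) had the lowest ratio of all 85 genes, at 1.63 FPKM (443 counts) with PBS and 0.83 FPKM (240 counts) with SJMHE1, a log2 ratio of -0.97 (-1.20 to -0.74). The other two genes had far higher levels, Atp5g2 at 33.8 and 29.6 FPKM and Atp5g3 at 32.5 and 28.5 FPKM, each with a ratio of -0.19. The sum over the 3 genes was 67.9 FPKM with PBS and 59.0 with SJMHE1, a log2 ratio of -0.20, so Atp5g1 added little to it. Of the 50-base windows of their exons, 38.3% for Atp5g2 and 10.2% for Atp5g1 also occur in another gene, and reads there may have been assigned to either gene.

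Of the remaining ATP synthase subunits, Atp5k was the lowest. This e subunit of the membrane part had 8.85 FPKM (302 counts) and 6.40 FPKM (230 counts), a log2 ratio of -0.47 (-0.73 to -0.22), and Atp5j, coupling factor 6 of the peripheral stalk, had 11.3 and 9.15 FPKM with a ratio of -0.31 (-0.40 to -0.21). A stretch from a promoter window of each is shown above. Of the exon bases of Atp5j, 12.7% are overlapped by Gabpa, a gene on the opposite strand that was at 11.7 and 14.0 FPKM. The highest were Atp5o, the oligomycin sensitivity protein at the top of the peripheral stalk, at 24.2 and 24.3 FPKM, and Atp5j2, the f subunit, at 7.41 and 7.44 FPKM, each with a ratio of 0.01. Their intervals reached 0, but with FPKM rescaled to equal sums that of Atp5o was 0.01 to 0.17.

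The ratios were also set beside the promoter motifs, and the difference between genes with and without a motif was not tested. The 12 genes with the NRF1 core had a median log2 ratio of -0.15, from -0.47 to 0.12, and the 60 without it had a median of -0.09, from -0.97 to 0.40. The 19 with the ETS motif had a median of -0.20, with 16 below 0, and the 53 without it had -0.09, with 37 below 0. Among the regulators, Nrf1 itself was at 5.25 FPKM with PBS and 4.80 with SJMHE1, a ratio of -0.13 (-0.20 to -0.05), while Gabpa was at 11.7 and 14.0 FPKM, a ratio of 0.25 (0.19 to 0.32). Over the 14 regulators of mitochondrial genes the median was 0.13, from -0.31 for Tfb2m, a transcription factor of the mitochondrion, to 0.58 for Tfb1m, which methylates its ribosomal RNA. Of the 14, 9 lay above 0 and 5 below, among these Myc, the most expressed, at 85.6 and 76.8 FPKM with a ratio of -0.16 (-0.19 to -0.12). The summed level of the 14 was 201 and 199 FPKM. The regulators' median and that of the respiratory genes had opposite signs, although the regulators were mixed.

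The subunits encoded in the mitochondrial genome, the partners of these nuclear subunits, were measured in the same libraries. Their 13 genes had a median log2 ratio of 0.05, with 9 above 0 and 4 below, from -0.20 for mt-Nd6 to 0.27 for mt-Nd4l. The sum of their FPKM was 33501 with PBS and 35009 with SJMHE1, while that of the nuclear genes was 1883 and 1739. Electron carriers, 7 genes, had a median of 0.03, from -0.20 for Etfb to 0.14 for Gpd2. The 17 genes of the TCA cycle, which feeds NADH and succinate to the chain, had a median of -0.06 with 14 below 0, from -0.34 for Idh2 to 0.14 for Sucla2. Whether the nuclear genes differ from these lists was not tested.

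Other features of the libraries differed beside the respiratory genes, and their part in the result was not tested. The genes are short, with a median length, computed from counts and FPKM, of 1958 bases against 5036 bases for the protein-coding genes compared. Lengths computed in this way were about 1.14 times the exon lengths in GENCODE M21. Among protein-coding genes under 2000 bases, 1038 in number, the median log2 ratio was -0.10 and 60.3% lay below 0, while the 44 respiratory genes of that length had a median of -0.11, with 33 of the 44 below 0. Over 2000 bases, the 8862 protein-coding genes had a median of 0.00 and the 41 respiratory genes had -0.09, with 29 of the 41 below 0. The protein-coding genes of each class include the respiratory and ribosomal protein genes of that length. The short respiratory genes thus had a median close to that of the short protein-coding genes that include them. The long respiratory genes had a median below that of the long protein-coding genes. The 83 cytosolic ribosomal protein genes compared, another group of short and abundant genes, had a median of -0.11 with 74 below 0, from -0.87 for Rpl21 to 0.93 for Rpl17, and the 78 mitochondrial ribosomal protein genes had a median of -0.07.

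The heat shock list and several cell type lists differed by more than the respiratory genes. All 12 heat shock genes were higher in the SJMHE1 library, with a median log2 ratio of 1.51, from 0.63 for Hsp90ab1 to 3.60 for Hspa1b, and the 22 immediate early genes, which respond to handling, had a median of -0.05, from -1.25 for Atf3 to 0.57 for Egr1. The 9 T cell markers were all lower, with a median of -1.73 and a summed level of 53.9 FPKM with PBS and 31.9 with SJMHE1, and Cd3e was at 1.77 and 0.39 FPKM. Markers of NK cells (4 of 6 compared) and of dendritic cells (3 of 6) had medians of -1.19 and -1.0, on sums of 13.8 and 6.33 FPKM and of 7.83 and 3.78 FPKM. Of the dendritic cell markers below 1 FPKM, Zbtb46 was higher, at 0.44 and 0.65 FPKM with a ratio of 0.56 (0.32 to 0.83). Clec9a and Xcr1, also below 1 FPKM, were lower. Those of erythroid cells (7 of 8) and red pulp macrophages (10 of 12) had medians of 0.42 and 0.53, on sums of 152 and 198 FPKM and of 25.3 and 30.8 FPKM. The macrophage markers were mixed, with 8 above 0, up to 1.83 for Cd5l, and 2 below, Adgre1 at -0.55 and Csf1r at -0.50. Neutrophil and plasma cell markers had medians of 0.02 and -0.19, with sums of 322 and 430 FPKM and of 652 and 548 FPKM. The summed level of the 9 B cell markers was 3074 and 3229 FPKM.

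The size of the shift also depends on how the libraries are put on 1 scale. When the FPKM values were rescaled to equal sums, the median of the 85 genes was -0.01 and that of all genes 0.07, and the medians of complexes I and II changed sign to 0.01 and 0.02. Each scaling adds about the same amount to every ratio, so it moves the groups together and cannot change their order. Relative to the median of all genes compared, the medians were -0.06 for complexes I and II, -0.16 for complex III, -0.17 for complex IV, -0.18 for the ATP synthase and 0.27 for the assembly factors.

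**Figure D4:**
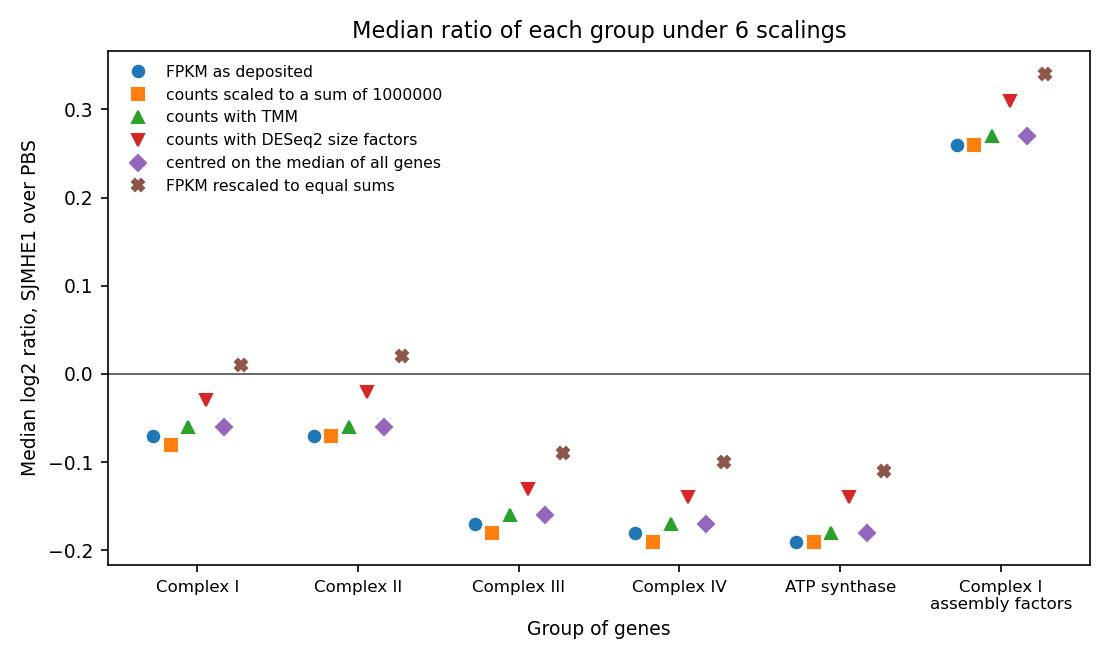
Median log2 ratio, SJMHE1 over PBS (y axis), of the genes of each complex and of the complex I assembly factors (x axis) under 6 ways of scaling the libraries, each with its own symbol. Complexes I and II lie between -0.08 and 0.02 and cross 0 when FPKM is rescaled to equal sums, complexes III and IV and the ATP synthase lie below 0 and the assembly factors above 0 in all 6.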

How the data were processed

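RNA sequencing of B cells sorted from the spleen gave 1 library per group, each from 3 mice mixed. The authors deposited 1 table of 27088 genes with coordinates, annotation, counts and FPKM. The deposited counts are raw whole numbers for each gene. FPKM was computed by the authors from counts, gene length and library size and is rounded to 2 decimals. The submitters' processing notes name bcl2fastq 2.0, HISAT2, StringTie, DESeq2, limma and mm10 without giving their roles; the annotation release and the use of strand are not given in the sources used here. Gene length, computed from the count, the FPKM and the sum of counts, came to 1.14 times the exon length in GENCODE M21. It was within 5% of that ratio for 85 of the 85 genes compared, and the ratio was nearly constant (5th to 95th percentile 1.14 to 1.15). Whether the factor lies in the lengths or in the library size used for the FPKM was not tested. In the second case the lengths given here are too long by that factor. The table holds 2 columns of per-sample values whose name matches no sample, which were not used, so the planned comparisons with the Control group were not made.

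The log2 ratio of FPKM, SJMHE1 over PBS, was taken with no pseudocount. Genes were compared where 1 library or both reached 1 FPKM and neither was at 0, and the threshold was a log2 ratio of 1. The 95% intervals are exact Clopper-Pearson intervals of the 2 counts, shifted by the log2 offset of -0.08 between the FPKM and count ratios, and cover counting error only, as does the limit of 3 counts for a count of 0. That limit is 0.0622 for PBS and 0.0585 for SJMHE1 on a scale of 1000000 counts. The genes named are the 2 highest in FPKM, the 2 highest and the 2 lowest in ratio of each complex among those that reach 1 FPKM in each library, the core subunits of complex I, complex II, the c ring, the tissue isoforms, and the highest and lowest gene of each other list. Other genes given with values were chosen after their values were seen, and the values of some genes are not reported here. The members, lists and motifs were chosen with earlier results of these data known. The identifiers of all 91 genes were found in GENCODE M21, where 13 of the genes share over 10% of their 50-base exon windows with another gene and 12 have over 10% of their exon bases overlapped by one. Promoter sequence is from RefSeq, GRCm38.p6. Alternatives were pseudocounts, filters, scalings (with TMM from edgeR and size factors computed as DESeq2 does) and subsets of the genes. The scripts were tested on simulated data. Python 3.11.15, numpy 2.4.6, pandas 2.3.3, scipy 1.17.1, matplotlib 3.10.9, R 4.3.3 and edgeR 4.0.16 were used.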

Additional observations from a re-analysis of the deposited data

How the results depend on the processing

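The median log2 ratio of the respiratory genes kept its sign in all 15 alternatives tried, from -0.11 to -0.01. The value nearest to 0 came from FPKM rescaled to equal sums, an alternative added after the data were seen. Under that scaling the median of complex I was 0.01 and that of complex II 0.02, both reversed, and that of the ATP synthase was -0.11. It adds 0.08 to each ratio by construction. The median of the assembly factors ranged from 0.19 to 0.34. With a threshold of 0.5, 1 gene was higher and 2 were lower, where none was at the threshold of 1. With no filter, 1 gene (Cox6a2) was lower past the threshold of 1. Without the genes of uncertain reads, those that share sequence with or are overlapped by another gene, the median of the remaining 64 genes was -0.09. No paired analysis was possible because no group holds more than 1 library. Leaving out a replicate was not possible either, and the alternatives planned for the comparisons with the Control group were not run. The depth limits the isoforms with few counts, whose intervals span more than a 2-fold difference.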

Other observations

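The gene set that the table annotates as KEGG oxidative phosphorylation holds 125 genes, of which 81 are among the 91 respiratory genes described above. The 44 others, which include the mitochondrially encoded subunits and the vacuolar ATPase, had a median log2 FPKM ratio of 0.04 over the 40 compared, with 22 above 0 and 17 below. The 20 Atp6 genes of that set, which code for the vacuolar proton pump that acidifies lysosomes, had a median of 0.00 over the 17 compared, from -0.30 for Atp6v0d1 to 0.28 for Atp6v1a. The whole set had a median of -0.07 over 116 genes, and its 76 compared members of the respiratory group had -0.10.

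The 78 mitochondrial ribosomal protein genes, whose products translate the mitochondrially encoded subunits, had 48 ratios below 0 and 30 above, from -0.51 for Mrpl27 to 1.08 for Mrps6. Their summed level was 567 FPKM in the PBS library and 544 FPKM in the SJMHE1 library.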
